A study of Mus musculus with 9 samples.

Results

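The 47 genes described here encode the proteins that carry a cell through mitosis: cyclins and kinases that start it, kinetochore and checkpoint proteins that hold chromosomes to the spindle, motors that shape the spindle, and the machinery that divides the cell. They were chosen by name from the deposited table of 22399 genes, and each of the 47 names matched a row. The choice was made with earlier results of these data known. Counts and medians over the 47 genes are thus a description and no test of the set. All 47 reached a mean of 1 FPKM (fragment count scaled to gene length and library size) over the 9 libraries, so each was among the 10367 genes tested.

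Mitotic genes are transcribed mainly in the G2 and M phases of the cell cycle, when Cdk1 bound to cyclin A2 or a B-type cyclin drives entry into mitosis. Kinetochores, built on centromeric chromatin, then capture microtubules, and the spindle checkpoint holds back the anaphase promoting complex until chromosomes are attached. Many of these genes are repressed in resting cells by the DREAM complex and activated by B-Myb and FoxM1, through a promoter sequence known as the cell cycle genes homology region (CHR) and through CCAAT boxes bound by NF-Y. In the epidermis, division takes place mostly in the basal layer, from which cells move up as they differentiate.

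RNA was sequenced from basal keratinocytes of mouse plantar skin, taken from the epidermis between hair follicles. Aged mice were 24 months old, and the labels state no diet for them. HFD mice were 5 months old and ate a high-fat diet, and control mice were 5 months old and ate a normal diet. Each of these 3 groups had 3 libraries, all from wild-type C57BL/6 animals, and all cells were released with trypsin and sorted as CD49f+ and CD34-, that is, for the integrin alpha 6 chain of basal cells and against a hair follicle stem cell marker. The labels do not tell if the libraries within a group stem from different animals, so p-values reflect only the spread among these libraries and may be technical in origin.

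The libraries held an estimated 23.5 to 35.8 M reads in genes. The least covered member, Depdc1a, still had 214.9 reads in its lowest library. The 8 basal keratinocyte markers summed to 23849 to 24946 FPKM in aged, 27078 to 31755 FPKM in HFD and 23952 to 30705 FPKM in control libraries. Markers of suprabasal keratinocytes were present too, and their 10 genes summed to 8169 to 11220 FPKM in aged, 6457 to 8885 FPKM in HFD and 6714 to 8449 FPKM in control libraries. Sums for melanocyte, T cell, endothelial and Merkel cell markers stayed at or below 1.35 FPKM in every library, with the Merkel markers Krt20 and Chga and the mural marker Pdgfrb at 0. The 8 Langerhans and myeloid markers summed to 4.55 to 8.68 FPKM in aged, 5.09 to 8.87 FPKM in HFD and 5.92 to 13.2 FPKM in control libraries. Of 9 hair follicle and sweat gland markers, only Acta2 and Lhx2 reached a mean of 1 FPKM. That list summed to 6.50 to 8.77 FPKM in aged, 14.0 to 18.5 FPKM in HFD and 8.58 to 9.35 FPKM in control libraries, with Acta2, a smooth muscle actin found in myoepithelial cells, as its most abundant gene. The 7 fibroblast markers summed to 29.2 to 36.8 FPKM in aged, 34.4 to 39.9 FPKM in HFD and 50.4 to 58.1 FPKM in control libraries, most of it Thy1, with Lum at 0 and 3 collagen genes under 0.18 FPKM. Dcn, also on that list, stood at 3.37 to 4.44 FPKM in aged, 1.41 to 2.34 FPKM in HFD and 4.45 to 6.47 FPKM in control libraries. The part of these marker lists in the mitotic values was not tested.

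Within groups, some libraries stood apart over the mitotic genes. Control replicate 3 had the highest value of its group for 45 of the 47 genes, against 37.3% of all genes tested. Aged replicate 1 had the lowest value of its group for 39 of them, and aged replicate 3 had the highest for 39. The 47 genes together summed to 1180, 1366 and 1497 FPKM in aged replicates 1 to 3, to 2252, 2264 and 2163 FPKM in HFD replicates and to 1385, 1401 and 1691 FPKM in control replicates. No HFD library overlapped a control or aged library in this sum, while the aged and control ranges did overlap. As a share of the estimated reads, the genes took 0.582% to 0.753% in aged, 1.06% to 1.12% in HFD and 0.694% to 0.818% in control libraries. In bulk RNA, fewer cells of a type and less RNA per cell cannot be told apart, and here that applies to cells in mitosis.

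**Figure D1:**
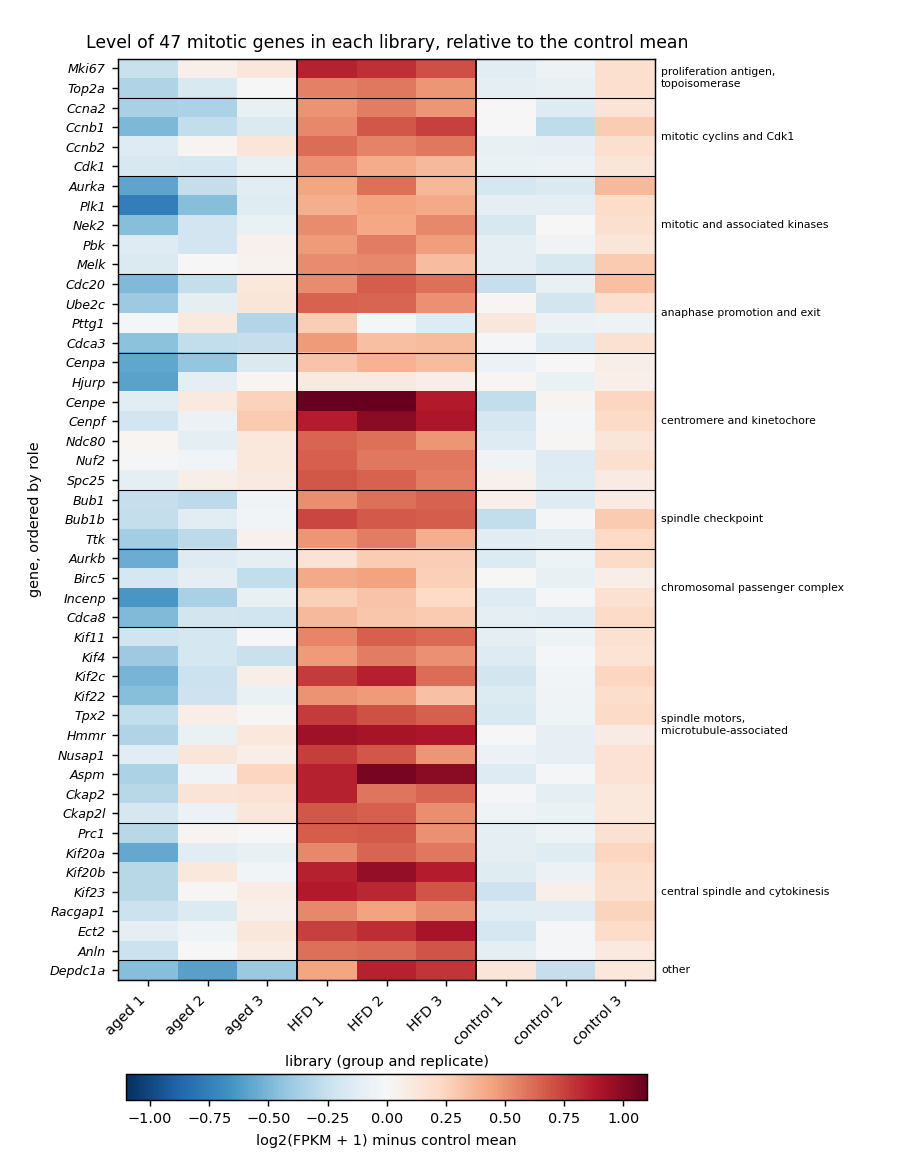
Level of each of the 47 genes (rows, ordered by role) in each of the 9 libraries (columns), as log2(FPKM + 1) minus the gene's mean over the 3 control libraries; red is above and blue below that mean. The 3 HFD columns are red for nearly all rows, with Pttg1 and Hjurp close to white, and control replicate 3 is pale red for most rows.

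Most of the mitotic genes rose in basal cells of HFD mice. Against control, 40 of the 47 rose and 0 fell, where 8.26% of all genes tested rose and 8.76% fell (limma, adjusted p under 0.05 over all genes). The median log2 fold change, a difference of log2(FPKM + 1), was 0.59 over the 47 genes and 0.01 over all genes tested. Single genes ranged between 0.03 for Pttg1 and 1.04 for Cenpe. In 45 of the 47, all 3 HFD libraries lay above all 3 control libraries, which held for 20.8% of all genes tested (19.6% had all 3 HFD libraries below). The 7 genes not called were Pttg1, Hjurp, Aurkb, Incenp, Cdca8, Plk1 and Aurka, and each had a fold change above 0. Of the 40 calls, 31 held in each of 17 alternative analyses, and the 9 others (Cdc20, Cdca3, Cenpa, Kif20a, Kif22, Melk, Racgap1, Ttk and Ube2c) were each lost when control replicate 2 was left out. Only Kif20a, Racgap1 and Ube2c were lost in that alternative alone. Cenpa was called in 9 of the 17 alternatives, Cdc20, Melk and Ttk in 10, Kif22 in 12 and Cdca3 in 15. Without control replicate 3, 43 genes were called. Scaling the libraries to equal total FPKM left 39 members called but moved the split over all genes to 598 higher and 1165 lower, against 856 higher and 908 lower as deposited.

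Few mitotic genes were called different from control in aged mice. Of the 47, 0 rose and 3 fell (Depdc1a, Cenpa and Cdca3), a share near that of all genes tested, of which 4.01% rose and 3.74% fell in aged against control. The median log2 fold change was -0.14 over the 47 genes, 40 of which were below 0, and -0.01 over all genes tested. In 8 of the 47 genes all 3 aged libraries lay below all 3 control libraries, against 14.1% of all genes tested. An unadjusted p under 0.05 was reached by 12 of the 47, and by 2674 of the 10367 genes tested, a like share. The 3 calls were not stable: 0 members were called without control replicate 3, HFD replicate 2, aged replicate 1 or aged replicate 2, 1 without control replicate 2 or HFD replicate 3, 2 without control replicate 1 or HFD replicate 1, and 6 without aged replicate 3. Scaling to total FPKM gave 358 higher and 507 lower over all genes, against 416 higher and 388 lower as deposited, and 4 members called.

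Set directly against HFD, aged cells had lower levels of nearly every mitotic gene. Of the 47, 45 were called lower and 0 higher, where 4.45% of all genes tested were lower and 3.54% higher in aged against HFD (7.99% in all). The median log2 fold change was -0.72 over the 47 genes and -0.0027 over all genes tested, and the lowest was -1.18 for Depdc1a. In 46 genes the 3 aged libraries all lay below the 3 HFD libraries, against 15.9% of all genes tested, and only Pttg1 overlapped. This comparison shares its HFD libraries with the first and its aged libraries with the second, so the 3 sets of values are not independent. Pttg1 and Hjurp were the members not called, and 42 of the 45 calls held in all 17 alternatives (Aurkb, Cdc20 and Melk did not). Without aged replicate 1, 43 members were called lower, and without aged replicate 3 or control replicate 3 the count was 45. Aged and HFD mice differed in age, and the labels give the aged mice no diet, so age and diet cannot be told apart here. Over the 3 groups together, limma's F test called 45 of the 47 genes, against 20.4% of all genes tested.

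**Figure D2:**
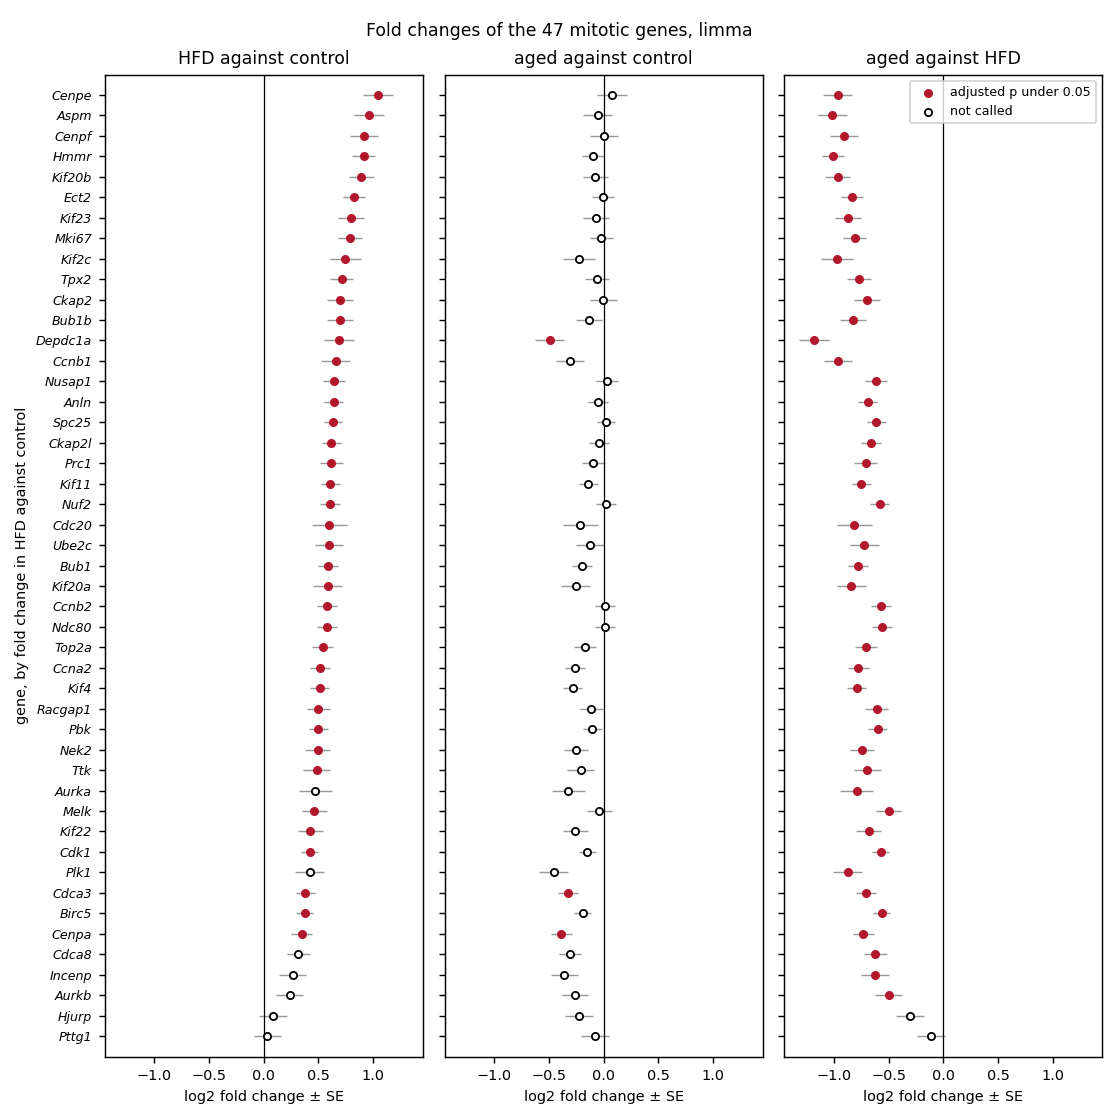
Log2 fold change ± SE (limma, n = 3 libraries per group) of each of the 47 genes, with HFD set against control on the left, aged against control in the middle and aged against HFD on the right, ordered by the left panel; filled points passed an adjusted p of 0.05. The left panel has 40 filled points, all above 0, the middle panel 3, all below 0, and the right panel 45, all below 0.

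The promoters of the genes at both ends of the HFD response are shown because mitotic genes that move together are known to share the CHR and CCAAT elements named above. Each stretch covers the 90 bases before and the first 30 bases after the gene's start as annotated in RefSeq. By that start, most of it is upstream promoter and its last 30 bases are transcribed. GENCODE M21 places Pttg1 at chr11:43420250-43426251, so by that annotation the whole Pttg1 stretch lies inside the gene. It places Hjurp at chr1:88262471-88277633 and Cenpe at chr3:135212537-135273611. Both thus start before the RefSeq start there, within the stretch shown. Bases come from RefSeq on GRCm38.p6, 5′ to 3′ on the gene's strand, and capitals mark TTTGAA or TTCGAA (CHR forms) and CCAAT on either strand, where CCAAT reads as ATTGG on the other strand. Cenpe and Aspm had the largest rises in HFD against control, and Pttg1 and Hjurp the smallest fold changes. The windows lie at chr3:135212473-135212592 (plus strand), chr1:139454683-139454802 (plus strand), chr11:43425952-43426071 (minus strand) and chr1:88277550-88277669 (minus strand).
Cenpe: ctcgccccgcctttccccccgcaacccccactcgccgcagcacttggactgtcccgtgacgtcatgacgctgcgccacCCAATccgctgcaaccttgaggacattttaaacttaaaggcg
Aspm: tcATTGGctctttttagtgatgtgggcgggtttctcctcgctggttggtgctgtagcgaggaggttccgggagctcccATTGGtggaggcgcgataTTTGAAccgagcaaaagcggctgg
Pttg1: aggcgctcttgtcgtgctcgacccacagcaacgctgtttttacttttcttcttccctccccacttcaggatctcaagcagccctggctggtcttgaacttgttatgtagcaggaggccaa
Hjurp: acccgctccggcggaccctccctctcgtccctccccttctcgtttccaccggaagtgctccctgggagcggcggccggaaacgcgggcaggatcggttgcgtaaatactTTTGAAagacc

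Cenpe, with the largest rise, and Pttg1, with the smallest fold change, both lacked TTTGAA in their windows, while Aspm and Hjurp both had it just after the RefSeq start. In these 4 genes, then, TTTGAA was found at both ends of the range. Further examples, added after motif positions had been seen, show how close to the start TTTGAA lies in many members. They are Cenpf at chr1:189688057-189688176, Hmmr at chr11:40733408-40733527, Kif23 at chr9:61946770-61946889 and Ccnb2 at chr9:70421525-70421644, all on the minus strand.
Cenpf: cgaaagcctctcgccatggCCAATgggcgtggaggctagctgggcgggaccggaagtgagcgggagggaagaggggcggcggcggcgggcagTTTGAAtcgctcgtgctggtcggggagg
Hmmr: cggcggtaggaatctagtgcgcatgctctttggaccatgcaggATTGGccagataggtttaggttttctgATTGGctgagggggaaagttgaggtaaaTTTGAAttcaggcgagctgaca
Kif23: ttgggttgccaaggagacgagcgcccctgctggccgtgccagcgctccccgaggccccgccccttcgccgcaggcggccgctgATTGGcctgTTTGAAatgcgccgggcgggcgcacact
Ccnb2: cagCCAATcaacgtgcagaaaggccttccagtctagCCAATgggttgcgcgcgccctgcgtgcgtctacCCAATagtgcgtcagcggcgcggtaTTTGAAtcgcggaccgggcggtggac

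A promoter window was found for 41 of the 47 genes, in 43 windows, since Ect2 and Prc1 each have 2 starts. The 6 without a window were Incenp, Kif20a, Pbk, Ccna2, Tpx2 and Aurkb. TTTGAA, on either strand, was in 34 of the 43 windows (79.1%), against 5878 of all 32851 windows of the same length (17.9%). It was in 6 of 49 windows of genes for S phase and replication (12.2%) and in 34 of 77 windows of other G2 and M phase genes (44.2%). The variant TTCGAA was in 3 of the 43 windows (6.98%), against 1.56% of all windows. CCAAT, on either strand, was in 34 of the 43 (79.1%), against 37.4% of all windows. Between 30 bases before and 45 bases after the start, a stretch picked after the positions had been seen, TTTGAA was in 31 of the 43 windows (72.1%), 2 of 49 S phase windows (4.08%) and 3.83% of all windows. A match describes the letters and is not evidence that a factor binds, and a window without one says only that these letters are not in it.

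**Figure D3:**
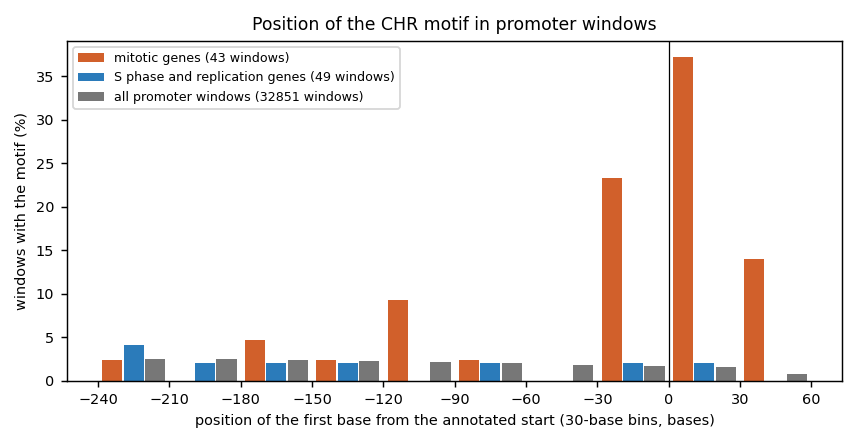
Share of promoter windows with the CHR form TTTGAA (either strand, without the variant TTCGAA) by the position of its first base from the annotated start, in 30-base bins, for the mitotic genes (43 windows), the S phase and replication genes (49 windows) and all promoter windows (32851). The mitotic genes peak at 37.2% in the 30 bases after the start, where all windows have 1.54%.

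Mki67, the Ki-67 antigen that coats mitotic chromosomes and is the usual marker of dividing cells, was among the most abundant members. It stood at 75.1, 92.8 and 97.2 FPKM in aged, 161, 157 and 146 FPKM in HFD and 81.8, 85.7 and 101 FPKM in control libraries. All HFD libraries were above all others, and the aged and control ranges overlapped. In HFD it averaged 1.73 times the control mean (log2 fold change 0.79 ± 0.11 SE, limma adjusted p = 0.00159), and aged against HFD gave -0.81 ± 0.11 (adjusted p = 0.00217). Aged against control gave -0.02 ± 0.11 (adjusted p = 0.921). Top2a, the topoisomerase that untangles sister chromatids, had 58.9, 66.1 and 74.01 FPKM in aged, 109, 112 and 105 FPKM in HFD and 69.1, 70.2 and 84.9 FPKM in control libraries. It rose by 0.54 ± 0.10 in HFD against control (limma adjusted p = 0.00568) and was -0.71 ± 0.10 in aged against HFD (adjusted p = 0.00239).

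Mitotic cyclins and their kinase rose together in HFD cells. All 4 of Ccna2, Ccnb1, Ccnb2 and Cdk1 were called higher in HFD against control and lower in aged against HFD, and 0 of the 4 in aged against control. Over all genes tested, 8.26% were higher in HFD against control and 4.45% lower in aged against HFD. These shares apply to the role groups below too. Ccnb1, the cyclin B1 that activates Cdk1 at mitotic entry, stood at 17.9, 21.03 and 22.8 FPKM in aged, 37.3, 41.6 and 43.5 FPKM in HFD and 25.4, 20.9 and 31.1 FPKM in control libraries. HFD lay above both other groups, at a log2 fold change of 0.66 ± 0.13 against control (limma adjusted p = 0.00821), and aged against HFD was -0.96 ± 0.13 (adjusted p = 0.00233). Some 23.4% of its 50-base stretches also occur in other genes, chiefly Ccnb1-ps, so its counts are uncertain. Cdk1 itself had 34.4, 34.1 and 36.8 FPKM in aged, 55.8, 52.3 and 50.2 FPKM in HFD and 36.97, 37.4 and 43.1 FPKM in control libraries, and no group overlapped another. Its change was 0.42 ± 0.08 in HFD against control (limma adjusted p = 0.00569), while aged against control gave -0.15 ± 0.08 (adjusted p = 0.247). For Ccna2, the cyclin A2 of S phase and mitotic entry, values were 42.7, 42.8 and 51.7 FPKM in aged, 77.6, 81.4 and 76.98 FPKM in HFD and 54.8, 49.4 and 60.6 FPKM in control libraries. It changed by 0.51 ± 0.09 in HFD against control (limma adjusted p = 0.00552), and 12.5% of its exonic bases overlap Exosc9 on the opposite strand. The remaining B-type cyclin, Ccnb2, averaged 88.6 ± 8.55 FPKM in aged, 132 ± 3.16 FPKM in HFD and 88.04 ± 9.53 FPKM in control libraries (SD, n = 3 each).

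A group of 5 kinases, apart from Cdk1, Aurkb and those of the checkpoint, held Aurka, Plk1, Nek2, Pbk and Melk. Nek2, Pbk and Melk were called higher in HFD against control, and all 5 were lower in aged against HFD. Plk1, which drives centrosome maturation and many later steps of mitosis, stood at 21.7, 26.8 and 34.1 FPKM in aged, 49.7, 51.4 and 50.4 FPKM in HFD and 35.1, 34.7 and 43.3 FPKM in control libraries. The 3 groups did not overlap, with HFD highest and aged lowest, yet neither difference from control passed the threshold. HFD against control gave 0.42 ± 0.14 (limma adjusted p = 0.0539, and 0.0104 to 0.163 over the alternatives). Aged against control gave -0.46 ± 0.14 (limma adjusted p = 0.0631, and 0.00947 to 0.197 over the alternatives), and aged against HFD was called at -0.87 ± 0.14 (adjusted p = 0.00374). Without aged replicate 3, Plk1 was called in all 3 comparisons. Nek2, a kinase of centrosome separation, had 11.3, 13.8 and 15.2 FPKM in aged, 23.5, 21.9 and 23.6 FPKM in HFD and 14.1, 16.1 and 18.3 FPKM in control libraries. HFD was above the other groups for Nek2, by 0.49 ± 0.11 against control (limma adjusted p = 0.0143). Pbk, a kinase active in mitotic cells, was measured at 49.1, 46.6 and 55.9 FPKM in aged, 75.2, 80.5 and 74.9 FPKM in HFD and 50.5, 52.8 and 59.5 FPKM in control libraries, a change of 0.50 ± 0.09 in HFD against control (limma adjusted p = 0.00459). Aurka, the kinase of spindle poles, averaged 17.6 ± 2.95 FPKM in aged, 30.97 ± 2.79 FPKM in HFD and 22.4 ± 5.24 FPKM in control libraries (SD, n = 3 each) and was just short of a call in HFD against control (limma adjusted p = 0.0528).

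Of the 4 genes grouped under anaphase promotion and mitotic exit, Cdc20, Ube2c and Cdca3 rose in HFD against control, and Pttg1 was not called. No difference between these genes was tested. Pttg1, the securin that keeps separase inactive, stood at 13.7, 14.99 and 10.9 FPKM in aged, 16.9, 13.7 and 12.5 FPKM in HFD and 15.2, 13.2 and 13.3 FPKM in control libraries. All 3 groups overlapped. Its log2 fold change was 0.03 ± 0.13 in HFD against control (limma adjusted p = 0.874) and -0.11 ± 0.13 in aged against HFD (adjusted p = 0.629). Ube2c, the ubiquitin-conjugating enzyme of the anaphase promoting complex, had 39.5, 48.7 and 57.7 FPKM in aged, 82.9, 82.5 and 74.6 FPKM in HFD and 53.1, 45.5 and 59.6 FPKM in control libraries. That change, 0.60 ± 0.13 in HFD against control (limma adjusted p = 0.0118, and 0.0524 without control replicate 2), came with an overlap of 22.8% of its exonic bases with Tnnc2 on the opposite strand. Cdca3, which promotes the degradation of the mitotic inhibitor Wee1, had 41.6, 47.3 and 48.01 FPKM in aged, 79.6, 72.2 and 73.3 FPKM in HFD and 56.3, 51.9 and 64.4 FPKM in control libraries. Its groups did not overlap, and it was called in each comparison: 0.38 ± 0.09 in HFD against control (limma adjusted p = 0.0171), -0.33 ± 0.09 in aged against control (adjusted p = 0.0486) and -0.71 ± 0.09 in aged against HFD (adjusted p = 0.002). The call against control in aged held in 7 of 17 alternatives, with adjusted p between 0.0297 and 0.163. Cdc20, the activator of the anaphase promoting complex, had the highest control mean of the 47 genes, at 81.3 ± 17.6 FPKM in aged, 141 ± 7.30 FPKM in HFD and 94.3 ± 20.6 FPKM in control libraries (SD, n = 3 each).

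**Figure D4:**
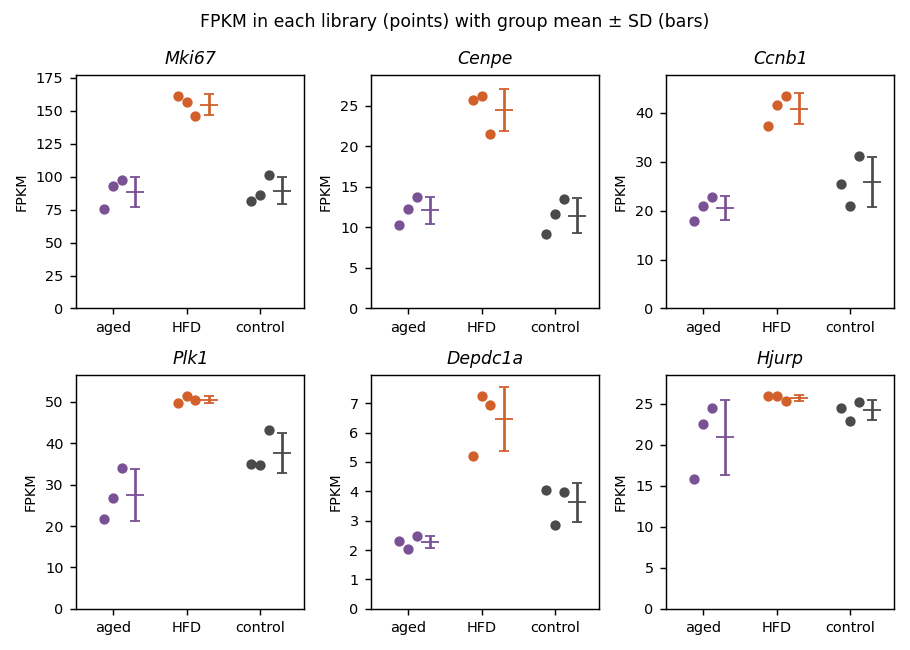
FPKM of 6 members in each aged, HFD and control library (points), with the group mean ± SD as a bar beside them (n = 3 each). HFD libraries stand above the other groups for Mki67, Cenpe, Ccnb1, Plk1 and Depdc1a, and for Hjurp the HFD libraries at 25.3 to 25.9 FPKM lie only just above the control libraries at 22.9 to 25.2 FPKM.

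At the centromere and kinetochore, 6 of 7 genes rose in HFD against control, and the same number were lower in aged against HFD. Cenpe, a kinesin that moves chromosomes to the spindle equator, stood at 10.3, 12.3 and 13.7 FPKM in aged, 25.6, 26.2 and 21.5 FPKM in HFD and 9.20, 11.6 and 13.5 FPKM in control libraries. Every HFD library was above every other library, and the mean was 2.14 times that of control. That was the largest change of the 47 genes in HFD against control, at 1.04 ± 0.13 (limma adjusted p = 0.00147), whereas aged against control gave 0.08 ± 0.13 (adjusted p = 0.75). Cenpf, a large kinetochore protein that accumulates in G2, had 9.61, 10.8 and 14.00 FPKM in aged, 21.4, 23.4 and 21.8 FPKM in HFD and 9.80, 11.1 and 13.2 FPKM in control libraries. It rose by 0.92 ± 0.13 in HFD against control (limma adjusted p = 0.00195). The Ndc80 complex, which binds microtubule ends, is represented by Ndc80, Nuf2 and Spc25, and the 3 moved alike, by 0.58 to 0.63 in HFD against control. Nuf2 had 9.54, 9.45 and 10.6 FPKM in aged, 15.8, 14.9 and 14.9 FPKM in HFD and 9.41, 8.65 and 11.1 FPKM in control libraries (limma adjusted p = 0.00232 for HFD against control). Spc25 had 15.5, 17.6 and 18.1 FPKM in aged, 27.6, 26.9 and 25.4 FPKM in HFD and 17.4, 15.2 and 17.9 FPKM in control libraries (adjusted p = 0.00148). For both, aged and control libraries overlapped, and aged against control gave 0.02 ± 0.09 for Nuf2 and 0.02 ± 0.08 for Spc25.

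Cenpa and its chaperone Hjurp had the smallest fold changes of this group in HFD against control. Cenpa, the histone H3 variant that marks centromeres, stood at 13.8, 15.3 and 18.7 FPKM in aged, 26.3, 27.6 and 26.9 FPKM in HFD and 19.9, 20.9 and 22.01 FPKM in control libraries, with no overlap between groups. It was called higher in HFD against control at 0.35 ± 0.10 (limma adjusted p = 0.0303) and lower in aged against control at -0.38 ± 0.10 (adjusted p = 0.0348). These calls held in 9 and 10 of the 17 alternatives, with adjusted p up to 0.0899 and 0.117. Hjurp, which loads Cenpa onto centromeres, had 15.8, 22.5 and 24.5 FPKM in aged, 25.9, 25.9 and 25.3 FPKM in HFD and 24.5, 22.9 and 25.2 FPKM in control libraries. The HFD libraries lay above all control libraries but by a small margin, at 0.08 ± 0.13 (limma adjusted p = 0.675), and aged against HFD gave -0.31 ± 0.13 (adjusted p = 0.163). Aged replicate 1 was the lowest library for Hjurp.

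All 3 spindle checkpoint kinases rose in HFD against control and were lower in aged against HFD. Bub1b, the BubR1 protein that inhibits the anaphase promoting complex, stood at 25.1, 27.97 and 29.8 FPKM in aged, 51.1, 49.2 and 48.9 FPKM in HFD and 24.9, 30.2 and 37.2 FPKM in control libraries, a change of 0.69 ± 0.12 in HFD against control (limma adjusted p = 0.00449). Bub1, its relative that recruits checkpoint proteins to kinetochores, had 7.13, 6.95 and 8.43 FPKM in aged, 12.8, 13.8 and 14.2 FPKM in HFD and 9.08, 7.76 and 9.31 FPKM in control libraries and changed by 0.59 ± 0.09 (adjusted p = 0.00283). Ttk, the Mps1 kinase at the head of the checkpoint, had 7.15, 7.71 and 10.03 FPKM in aged, 13.9, 14.7 and 13.1 FPKM in HFD and 8.80, 8.96 and 11.4 FPKM in control libraries and changed by 0.48 ± 0.12 (adjusted p = 0.022, and up to 0.101 over the alternatives). In each of the 3 genes HFD stood apart and the aged and control libraries overlapped.

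The chromosomal passenger complex, which corrects faulty attachments and later guides cytokinesis, had the smallest median change in HFD against control of the role groups with more than 1 gene, at 0.29. All 4 had a fold change above 0, and Birc5, the survivin subunit, was the only one called higher. Birc5 had 27.02, 28.6 and 25.4 FPKM in aged, 41.7, 42.4 and 37.3 FPKM in HFD and 31.00, 29.3 and 32.7 FPKM in control libraries. Its change in HFD against control was 0.37 ± 0.08 (limma adjusted p = 0.00975). Aurkb, the kinase of the complex, had 25.03, 33.5 and 34.5 FPKM in aged, 41.3, 45.2 and 44.9 FPKM in HFD and 33.2, 35.5 and 42.95 FPKM in control libraries. Control replicate 3 lay within the HFD range for Aurkb, and the change in HFD against control was 0.24 ± 0.12 (limma adjusted p = 0.195). Cdca8, the borealin subunit, was measured at 16.5, 20.2 and 20.03 FPKM in aged, 30.3, 29.2 and 28.96 FPKM in HFD and 21.9, 21.6 and 27.4 FPKM in control libraries. Its groups did not overlap, with 0.32 ± 0.10 in HFD against control (limma adjusted p = 0.0539) and -0.30 ± 0.10 in aged against control (adjusted p = 0.0889). Incenp, the scaffold, averaged 30.4 ± 6.00 FPKM in aged, 46.8 ± 1.48 FPKM in HFD and 38.9 ± 4.39 FPKM in control libraries (SD, n = 3 each). All 4 were lower in aged against HFD, by a median of -0.59, although Aurkb (limma adjusted p = 0.0319) reached 0.0971 in the alternative least favourable to it. Whether the passenger genes respond less than other mitotic genes was not tested.

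Every one of the 10 spindle motors and microtubule-associated proteins rose in HFD against control and was lower in aged against HFD, with medians of 0.67 and -0.76. The shares over all genes tested were 8.26% and 4.45%. Aspm, which focuses microtubules at spindle poles, stood at 6.72, 8.56 and 10.6 FPKM in aged, 16.7, 19.3 and 18.6 FPKM in HFD and 7.95, 8.68 and 10.03 FPKM in control libraries. HFD levels were 2.05 times control (log2 fold change 0.96 ± 0.13 SE, limma adjusted p = 0.00187), with a difference of -1.01 ± 0.13 in aged against HFD (adjusted p = 0.00217). Hmmr, a spindle assembly factor also known as a hyaluronan receptor, had 12.1, 14.7 and 16.9 FPKM in aged, 30.5, 30.01 and 29.6 FPKM in HFD and 15.6, 14.5 and 16.5 FPKM in control libraries. Its HFD libraries differed from each other by less than 1 FPKM, and the changes were 0.91 ± 0.10 in HFD against control (limma adjusted p = 0.00135) and -1.01 ± 0.10 in aged against HFD (adjusted p = 0.00121). Nusap1, which bundles spindle microtubules near chromosomes, had 45.96, 54.9 and 52.7 FPKM in aged, 85.2, 80.98 and 70.5 FPKM in HFD and 47.6, 46.9 and 55.9 FPKM in control libraries and rose by 0.64 ± 0.10 (limma adjusted p = 0.00248). Kif4, a chromosome-bound kinesin, had 12.4, 14.5 and 13.9 FPKM in aged, 23.4, 25.2 and 24.04 FPKM in HFD and 15.1, 16.6 and 18.6 FPKM in control libraries. Its groups did not overlap, and the change was 0.51 ± 0.09 in HFD against control (limma adjusted p = 0.00447) and -0.28 ± 0.09 in aged against control (adjusted p = 0.073). Of the exonic bases of Kif4, 15.1% overlap Pdzd11 on the opposite strand. The other members of the group, Kif11, Kif2c, Kif22, Tpx2, Ckap2 and Ckap2l, rose by 0.42 to 0.75 in HFD against control. The Kif22 call held in 12 of the 17 alternatives, with limma adjusted p up to 0.086.

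Central spindle and cytokinesis genes all rose in HFD against control as well, 7 of 7, and all 7 were lower in aged against HFD. Ect2, the exchange factor that activates RhoA at the division plane, stood at 19.4, 20.2 and 22.9 FPKM in aged, 35.9, 37.4 and 39.99 FPKM in HFD and 18.3, 20.6 and 24.2 FPKM in control libraries. HFD libraries were above all others, by 0.82 ± 0.10 against control (limma adjusted p = 0.00135), and aged against control gave -0.01 ± 0.10 (adjusted p = 0.969). Kif20b, a kinesin of late cytokinesis, had 7.68, 10.7 and 9.51 FPKM in aged, 18.3, 20.03 and 18.5 FPKM in HFD and 8.82, 9.27 and 11.3 FPKM in control libraries and rose by 0.89 ± 0.11 (limma adjusted p = 0.00147). Kif23 and Racgap1, which together form the centralspindlin complex, rose by 0.80 ± 0.12 (limma adjusted p = 0.00239) and 0.50 ± 0.11 (adjusted p = 0.0112). Prc1, Kif20a and Anln, the anillin of the contractile ring, rose by 0.58 to 0.64. Of the exonic bases of Kif20a, 29.3% overlap Cdc23 on the opposite strand, as do 11.1% of those of Prc1 with Rccd1.

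Depdc1a, grouped apart from the roles above, was the least abundant member. It stood at 2.32, 2.04 and 2.46 FPKM in aged, 5.20, 7.24 and 6.93 FPKM in HFD and 4.04, 2.86 and 3.99 FPKM in control libraries, and no group overlapped another. It was called in each comparison: 0.69 ± 0.13 in HFD against control (limma adjusted p = 0.0074), -0.49 ± 0.13 in aged against control (adjusted p = 0.0469) and -1.18 ± 0.13 in aged against HFD (adjusted p = 0.00166). The aged call against control held in 9 of 17 alternatives, with adjusted p up to 0.146. A share of 60.8% of its 50-base stretches also occurs in other genes, chiefly the predicted gene Gm5596, so these values may mix both sources.

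Many other genes of G2 and M phase also rose in HFD cells. In a list of 84 that were not among the 47, 44 rose and 1 (Pkmyt1) fell in HFD against control, 0 rose and 2 (Cdc25b and Espl1) fell in aged against control, and 53 were lower and 0 higher in aged against HFD. Over all genes tested, 8.26% rose and 8.76% fell in HFD against control, and 4.01% rose and 3.74% fell in aged against control. In aged against HFD, 4.45% of all genes tested were lower and 3.54% higher. The medians over the 84 genes were 0.37, -0.13 and -0.50 in these comparisons. Smc4, a condensin subunit, averaged 59.1 ± 2.88 FPKM in aged, 91.8 ± 2.18 FPKM in HFD and 55.7 ± 3.95 FPKM in control libraries (SD, n = 3 each). Mastl, the Greatwall kinase, averaged 7.40 ± 0.649 FPKM in aged, 12.99 ± 0.542 FPKM in HFD and 7.05 ± 0.798 FPKM in control libraries. Knl1, the kinetochore scaffold of the checkpoint, averaged 5.87 ± 0.803 FPKM in aged, 13.1 ± 1.08 FPKM in HFD and 6.77 ± 0.732 FPKM in control libraries. All 3 rose in HFD against control, with limma adjusted p of 0.000894 for Smc4 and 0.00135 for both Mastl and Knl1. Kif15, a spindle kinesin, rose by 0.66 and the condensin subunit Smc2 was at -0.62 in aged against HFD. Espl1, the separase that securin inhibits, averaged 5.61 ± 1.34 FPKM in aged and 8.22 ± 1.05 FPKM in control libraries, and Cdc25b, a phosphatase that activates Cdk1, averaged 34.03 ± 3.83 FPKM in aged and 45.6 ± 6.46 FPKM in control libraries.

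Of 52 genes of S phase and DNA replication, 1 rose (Rrm1) and 2 fell (Pold2 and Cdt1) in HFD against control, with a median of 0.03. Over all genes tested, 8.26% rose and 8.76% fell in that comparison. The split was 3 higher and 0 lower without control replicate 3, and none was called after a correction for the GC content of the transcripts, or without HFD replicate 1 or HFD replicate 3. In aged against control 0 rose and 10 fell, with a median of -0.21, and in aged against HFD 0 were higher and 10 lower, with a median of -0.20. The shares over all genes tested were 4.01% higher and 3.74% lower in aged against control. They were 3.54% higher and 4.45% lower in aged against HFD. Summed, the 52 genes reached 817 ± 35.9 FPKM in aged, 981 ± 20.0 FPKM in HFD and 978 ± 82.6 FPKM in control libraries (SD, n = 3 each). The same sum over the 47 mitotic genes was 1348 ± 159 FPKM in aged, 2226 ± 54.8 FPKM in HFD and 1492 ± 172 FPKM in control libraries. The 3 HFD libraries thus stood apart in the mitotic sum and lay within the control range in the S phase sum. Pcna, the replication clamp, averaged 49.2 ± 6.16 FPKM in aged, 72.1 ± 0.852 FPKM in HFD and 66.7 ± 2.45 FPKM in control libraries, and fell in aged against control (limma adjusted p = 0.0143). Pold2, Rrm2 and Rfc2, which serve DNA synthesis, fell by 0.35 to 0.41 in aged against control. The number of S phase genes called in aged against control ranged between 0 and 17 when single libraries were left out, with 0 called without control replicate 3. No difference between the mitotic and the S phase genes was tested.

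Of 21 regulators of G2 and M phase transcription, Rbl1 and Lin9 rose and Mybl2, E2f2 and E2f3 fell in HFD against control, with a median of 0.004. These 5 calls of 21 compare with 17.0% of all genes tested. The split was 2 higher and 0 lower with no filter on low values or without control replicate 3, and 0 higher and 1 lower after the correction for GC content. Mybl2, the B-Myb activator, averaged 3.72 ± 0.847 FPKM in aged, 3.49 ± 0.177 FPKM in HFD and 5.04 ± 0.179 FPKM in control libraries (log2 fold change -0.43 ± 0.12 SE in HFD against control, limma adjusted p = 0.0287). Lin9, a subunit of the MuvB core that DREAM and B-Myb share, averaged 2.20 ± 0.207 FPKM in aged, 2.87 ± 0.119 FPKM in HFD and 2.01 ± 0.0806 FPKM in control libraries. Foxm1 averaged 18.5 ± 3.53 FPKM in aged, 25.1 ± 1.21 FPKM in HFD and 23.7 ± 3.59 FPKM in control libraries, and was not called (adjusted p = 0.0626 in aged against HFD by limma). The calls in HFD against control ranged between 0 and 6 when single libraries were left out, with 0 without control replicate 2 or HFD replicate 2. In aged against control E2f8, E2f2 and E2f4 fell and 0 rose, where 3.74% of all genes tested fell. Those calls ranged between 0 and 4 when single libraries were left out, with 0 without control replicate 3, aged replicate 1 or aged replicate 2.

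Fold changes in HFD against control varied with base composition. Across the 47 genes, Spearman's rho between the fold change and the GC content of the longest transcript was -0.52, and across all genes with a GC value it was -0.46. These are correlations across genes of the same libraries, and genes are not independent replicates. The mitotic genes had a median GC content of 46.1%, between 35.3% and 56.0%, against 49.8% for all genes tested. In 8 bins of all genes by GC content, the median log2 fold change was 0.15 in the lowest bin and -0.21 in the highest. After a GC correction within each library, the median over the 47 genes was 0.49, rho was -0.19, and 38 members were called, 37 of them among the 40 called before. Over all genes, 606 were then called higher and 555 lower, against 856 and 908 before. Calls among the 84 other G2 and M phase genes went from 45 to 31. Among the 47 members, the correction changed single calls. Cenpa, Melk and Ttk were no longer called and Plk1 was. In aged against HFD, 45 members were called with the correction as without it. A trend with GC content was also seen in aged against control, which uses the same control libraries as HFD against control. Before the correction, rho in aged against control was -0.53 over the 47 genes and -0.33 over all genes. For aged against HFD the same values were 0.12 and 0.22.

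**Figure D5:**
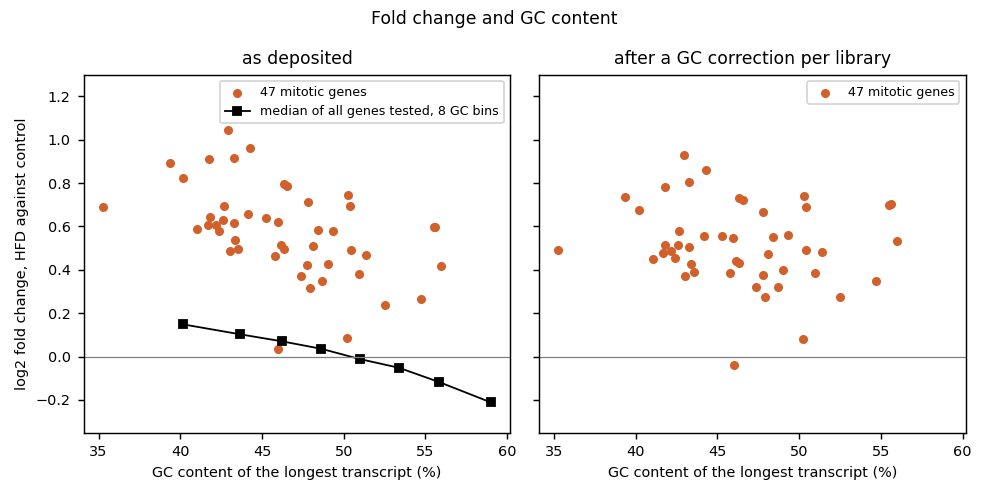
Log2 fold change in HFD against control of each of the 47 genes (points) by GC content of the longest transcript, as deposited (left, with the median of all genes tested in 8 GC bins as squares) and after the GC correction (right). All but Hjurp and Pttg1 lie well above the line of medians at their GC content.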

How the data were processed

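RNA-seq was measured in 9 libraries, 3 in each of 3 groups. The authors deposited 1 table of FPKM per gene. Upstream tools named in the submitters' processing notes are STAR 2.6.0c, HTSeq 0.11.2, cutadapt, DESeq2 1.30.0 and the mm10 build. Neither the tool that made the FPKM nor strand-aware counting is given in the sources used here. Low values fell on whole reads for 97.5% to 98.3% of genes up to 30 reads (tolerance 0.02), from which depth was estimated. FPKM plus 1 was log2-transformed, and limma (version 3.58.1, under R 4.3.3; eBayes with trend) was fitted to the 10367 genes averaging 1 FPKM or more, with all 9 libraries in a single model that had 6 residual and 5.50 prior degrees of freedom. Tests were two-sided, and a call required a Benjamini-Hochberg adjusted p under 0.05 across all genes tested. Simulated data were used to test the limma calls in HFD against control only.

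The members and gene lists were chosen with earlier results of these data known. Values in every library are given for Mki67, Top2a, Ccnb1 and Cdk1, for the 2 members of each role with the smallest p in the F test (all in groups of 3 or fewer), and for the 3 highest and 3 lowest fold changes of each comparison. Other members, and the 4 genes per list with the smallest p, are given by mean or range, and genes outside that rule were named after their values were seen. Alternatives dropped each library in turn, kept only the 6 libraries compared, used a pseudocount of 0.1, removed the filter, applied quantile normalization or scaling to total FPKM, added a replicate block, or corrected for GC content (loess of each library's deviations, span 0.5, degree 1) with and without that block. Locations, GC content and shared 50-base stretches came from GENCODE M21 on GRCm38, and promoters from RefSeq.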

Additional observations from a re-analysis of the deposited data

How the results depend on the processing

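Of the 47 mitotic genes, 40 were called in HFD against control and 31 to 43 over the alternatives, which kept 31 to 40 of those 40. In aged against HFD 45 were called, and 42 to 45 over the alternatives, all among those 45. None of these calls changed direction. The 3 calls in aged against control became 0 with no filter on low values or with only the 6 libraries compared, 6 with the replicate block and 8 with the GC correction and replicate block, and 0 to 6 when single libraries were left out.

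The other G2 and M phase genes went from 45 calls in HFD against control to 28 to 48, and from 53 in aged against HFD to 35 to 57, when single libraries were left out. With the GC correction, 31 were called in HFD against control and 58 in aged against HFD. Their 2 calls in aged against control became 1 with no filter, 1 with quantile normalization, 6 scaled to total FPKM, 8 with the replicate block, 5 with the GC correction, 9 with both, 0 with only the 6 libraries, and 0 to 16 without single libraries. S phase genes in HFD against control (3) became 1 with no filter, 5 with the replicate block and 0 with the GC correction, with or without the block, and 0 to 4 without single libraries. Their 10 calls in aged against control became 4 with no filter, 5 with only the 6 libraries and 0 to 17 without single libraries, and the 10 in aged against HFD became 3 with no filter and 1 to 13 without single libraries. Transcription regulators in HFD against control (5) became 2 with no filter, 1 with the GC correction, with or without the block, and 0 to 6 without single libraries. In aged against control (3) they became 1 with no filter, 5 with the block and 0 to 4 without single libraries, and in aged against HFD (2) they became 1 to 4. Over all genes, the 1764 calls in HFD against control became 1161 with the GC correction and 749 to 2109 without single libraries, the 804 in aged against control became 461 with only the 6 libraries and 300 to 1247 without single libraries, and the 828 in aged against HFD became 541 with no filter and 379 to 782 without single libraries. The cause was not tested.

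Among the genes whose values are given by library, only values near 0 that were not called changed sign. Scaling to total FPKM gave log2 fold changes of -0.0248 for Cenpf, -0.0056 for Nuf2, -0.0035 for Nusap1 and -0.0114 for Spc25 in aged against control, and -0.0123 for Pttg1 in HFD against control. The GC correction, with or without the replicate block, gave -0.0637 for Cenpf, -0.0539 for Nuf2, -0.0484 for Nusap1, -0.0529 for Spc25 and -0.0382 for Pttg1 in the same comparisons, and quantile normalization gave 0.0142 for Ect2 in aged against control. Leaving out single libraries gave ranges in aged against control of -0.197 to 0.0959 for Aspm, -0.272 to 0.0073 for Bub1b, -0.0562 to 0.197 for Cenpe, -0.136 to 0.114 for Cenpf, -0.0995 to 0.0918 for Ect2, -0.203 to 0.0222 for Hmmr, -0.170 to 0.0436 for Kif20b, -0.0927 to 0.0906 for Mki67, -0.0472 to 0.113 for Nuf2, -0.0223 to 0.108 for Nusap1, -0.170 to 0.0443 for Pttg1, -0.0476 to 0.0841 for Spc25 and -0.252 to 0.0164 for Ube2c. For Pttg1 they were -0.082 to 0.124 in HFD against control and -0.204 to 0.0094 in aged against HFD.

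The labels number the libraries alike in each group and do not say if same-numbered libraries were handled together. The correlation of their deviations from the group means was 0.0598, 0.0672 and 0.2743 for HFD and control. It was 0.1207, -0.0519 and 0.185 for aged and control, and 0.1046, 0.0007 and 0.2115 for aged and HFD. Between libraries of different groups and numbers it ranged between -0.2859 and 0.2178. Not every library correlated best with its own number. The replicate block moved the calls among the 47 genes from 40 to 43 in HFD against control and left 45 in aged against HFD. In aged against control it moved them from 3 to 6. Over all genes tested, calls went from 1764 to 2061 in HFD against control with the block. They went from 804 to 1137 in aged against control and from 828 to 987 in aged against HFD. Each mitotic gene had at least 214.9 estimated reads in every library, and the number of libraries, 3 per group, limits the precision.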
